A study of Mus musculus with 6 samples.

Results

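The slow fibre genes *Myh7*, *Tnnt1* and *Tnni1* and the fast fibre genes *Myh2*, *Myh1*, *Myh4*, *Tnnt3*, *Tnni2*, *Atp2a1* and *Pvalb* are 10 of the 16494 genes in the deposited table of single-cell RNA-sequencing counts from lower abdominal muscle (LAM). They were chosen by name and read in the fibre barcodes, those in which *Acta1*, the actin of skeletal muscle fibres, made up at least 3% of the UMIs (unique molecular identifiers, 1 for each transcript molecule counted). The rule kept 1628 of 63647 barcodes. The 6 mice were males of strain FVB/N aged 9 to 10 weeks. The 3 Aromhum (Arom) mice carried the human aromatase gene *CYP19A1* with its native promoters and were recorded with scrotal hernia, and the 3 WT mice were the controls. Aromatase converts androgens to oestrogens. The tissue was digested with collagenase and dispase, and a fine filter was used to hold back multinucleated cells. A fibre barcode is thus defined by its *Acta1* share alone. Whether a fibre barcode held a nucleus, a fragment, a small fibre or free fibre RNA was not tested.

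Skeletal muscle fibres shorten when myosin heavy chain motors pull on actin, and calcium released inside the fibre switches the thin filament on through the troponin complex. Slow fibres use the myosin *Myh7* with the slow troponins T and I (*Tnnt1* and *Tnni1*), and resist fatigue. Fast fibres use *Myh2*, *Myh1* or *Myh4*, in rising order of speed, with the fast troponins *Tnnt3* and *Tnni2*, the calcium pump *Atp2a1* (SERCA1) and the calcium buffer parvalbumin (*Pvalb*).

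The genes lie, on build GRCm38 with GENCODE M21 annotation, in 7 places. *Myh2* (chr11:67171027-67197517), *Myh1* (chr11:67200052-67224575) and *Myh4* (chr11:67238029-67260446) follow each other on the plus strand within 89.4 kb. *Tnni2* (chr7:142441808-142444410) and *Tnnt3* (chr7:142498836-142516009) lie on the plus strand within 74.2 kb. *Tnni1* (chr1:135779434-135810989) is on the plus strand. *Myh7* (chr14:54970684-54994626), *Tnnt1* (chr7:4504570-4516382), *Atp2a1* (chr7:126445858-126463108) and *Pvalb* (chr15:78191114-78206400) are on the minus strand. The libraries count 3′ ends, 1 UMI for each molecule whatever its length, so levels are given as UMIs per 1000000 UMIs (CPM) and not per length. Near the 3′ end, 22.2% of the 50-base words of *Myh7* occur also in *Myh6*, and 15.9%, 16.1% and 12.6% of those of *Myh2*, *Myh1* and *Myh4* occur also in another myosin of the cluster. These shares of words do not measure how many UMIs were counted for the wrong myosin, which was not tested. The other 6 genes shared no such word. Annotated genes that overlap *Myh7*, *Myh2*, *Myh1*, *Tnnt3* and *Atp2a1* lie on the opposite strand, apart from the microRNA gene Mir208b inside *Myh7*.

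Promoter sequence is shown for the 4 myosins, by which fibres are classed below, and for the 2 slow troponins, whose levels follow the slow myosin. RefSeq start sites (GRCm38.p6) were held for 8 of the 10 genes and not for *Tnnt3* and *Tnni2*. Each line gives 150 bases ending at the base before the start site, on the strand of the gene, with matches to 5 motifs in capitals. The windows are chr14:54994627-54994776 for *Myh7*, chr7:4515976-4516125 for *Tnnt1*, chr1:135799271-135799420 for *Tnni1*, chr11:67170877-67171026 for *Myh2*, chr11:67199952-67200101 for *Myh1* and chr11:67237662-67237811 for *Myh4*. Where RefSeq gives 2 starts, as for *Myh7* and *Tnni1*, the upstream one is shown. Relative to the start of the GENCODE gene the start used lies at the same base for *Myh7* and *Myh2*, 50 bases inside for *Myh1*, 407 inside for *Tnnt1* and 19987 inside for *Tnni1*, and for *Myh4* its offset is -217 bases, outside the gene.
*Myh7*: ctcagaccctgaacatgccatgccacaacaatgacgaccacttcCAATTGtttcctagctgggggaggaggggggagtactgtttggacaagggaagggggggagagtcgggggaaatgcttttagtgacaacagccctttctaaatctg
*Tnnt1*: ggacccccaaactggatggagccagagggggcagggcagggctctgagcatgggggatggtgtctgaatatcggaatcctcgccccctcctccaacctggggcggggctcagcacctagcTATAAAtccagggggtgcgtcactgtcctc
*Tnni1*: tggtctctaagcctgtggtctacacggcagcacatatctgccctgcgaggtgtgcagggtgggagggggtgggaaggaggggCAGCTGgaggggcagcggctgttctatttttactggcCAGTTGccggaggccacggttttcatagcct
*Myh2*: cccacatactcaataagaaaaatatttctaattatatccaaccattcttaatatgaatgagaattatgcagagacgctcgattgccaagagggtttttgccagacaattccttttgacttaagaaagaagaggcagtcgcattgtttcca
*Myh1*: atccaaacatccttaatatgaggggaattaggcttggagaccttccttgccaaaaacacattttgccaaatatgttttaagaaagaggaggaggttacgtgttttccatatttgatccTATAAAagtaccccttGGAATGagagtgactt
*Myh4*: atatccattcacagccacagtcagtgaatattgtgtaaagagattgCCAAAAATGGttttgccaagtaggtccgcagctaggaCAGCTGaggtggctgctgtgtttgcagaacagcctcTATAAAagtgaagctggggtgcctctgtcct

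The first motif was the E-box (CANNTG), which MyoD and its relatives bind. The second was the MCAT element (CATTCC), which TEAD factors bind. The third was the TATA box (TATAAA), where transcription machinery assembles, and the MEF2 and CArG boxes completed the list. All were searched on both strands in the 250 bases before the start. The TATA box was found in 12.3% of 32536 such windows of all genes, and stood 30, 32 and 31 bases before the start in *Tnnt1*, *Myh1* and *Myh4*. E-boxes, found in 66.2% of all windows, stood in *Tnni1* at 224, 191, 68 and 31 bases before the start, in *Myh7* at 106, in *Tnnt1* at 158 and in *Myh4* at 221 and 67. MCAT (12.6% of all windows) matched *Myh7*, *Myh1* and *Myh4*, at 201, 16 and 231 bases. The MEF2 box (2.89%) matched *Myh1* at 211 and *Myh4* at 182 bases, and the CArG box (1.48%) matched *Myh4* at 104 bases. Both MEF2 matches overlap a further TATA box, at 208 in *Myh1* and at 179 in *Myh4*, and another TATA box stood at 213 in *Myh4*. *Myh2* held none of these letters. A match is a description of the sequence and no evidence of binding.

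The libraries held 64958237 to 111826460 UMIs each and the fibre barcodes 642604 to 1624930 UMIs per mouse. Fibre barcodes numbered 249, 426 and 108 in WT replicates 1 to 3 and 285, 282 and 278 in Arom replicates 1 to 3. Their share of all barcodes was 2.58% ± 1.29 in WT and 2.51% ± 0.536 in Arom (SD, n = 3; exact permutation test, two-sided, p = 0.9), a difference of -0.0782 points that became -1.56 points within the study's limits of 200 to 2500 genes, a minimum of 1000 UMIs and a mitochondrial share up to 5% (exact permutation p = 0.7). With 3 mice against 3 that test, unpaired here, cannot go below 0.1. Fibre barcodes were shallow, with medians of 1368 to 3496 UMIs against 4728 to 8727 over all barcodes. In WT replicate 2, 186 of the 426 fibre barcodes exceeded 5% mitochondrial UMIs. *CYP19A1* had 0 UMIs in each WT library and 770, 797 and 787 in Arom. Of the fibre barcodes, 17 carried a barcode sequence that also occurred in another library, none of those there a fibre barcode. The 8 fibre markers, which include *Acta1*, summed to 166911 to 203829 CPM in the fibre barcodes and to 278 to 879 CPM in the other barcodes. *Pax7*, the defining marker of muscle stem cells, was at 0 in the fibre barcodes, but the list of 5 stem cell markers that holds it summed to 20.8 to 38.7 CPM there.

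The rule gathered most of each gene's signal. Depending on the mouse, the fibre barcodes held 81.8 to 91.7% of all *Tnnt3* UMIs and 79.3 to 90.8% of all *Tnni2* UMIs. The range was wider for the slow genes, at 52.2 to 96.2% for *Myh7*, 63.8 to 93.4% for *Tnnt1* and 56.9 to 94.9% for *Tnni1*. It was also wide for the fast myosin *Myh4*, at 53.8 to 90.6%. A *Tnnt3* UMI was seen in 96.0% of fibre barcodes and 7.25% of the others, and a *Tnnt1* UMI in 20.7% and 3.63%. Barcodes with a *Myh7* UMI made up 7.37% of fibre barcodes and 0.361% of the others, although the fibre barcodes were the shallower. Just inside the rule, in 104 barcodes with 3 to 3.5% *Acta1*, pooled *Tnnt1* was 939.9 CPM, *Tnnt3* 12939 CPM and *Pvalb* 3087 CPM. Just outside it, in 84 barcodes with 2.5 to 3%, the levels were 307, 10493 and 2272 CPM. *Myh7* stood at 103 CPM inside and 6.13 CPM outside, *Myh1* at 921 and 1049 CPM and *Myh4* at 1217 and 1220 CPM.

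Single fibre barcodes mostly expressed 1 myosin. A barcode was given a myosin class where at least 3 UMIs fell on the 4 myosins and 1 myosin held at least 66.7% of them. Of 1628 fibre barcodes, 460 had too few myosin UMIs, 1041 took a class and 127 were mixed. The classes held 84 *Myh7*, 278 *Myh2*, 387 *Myh1* and 292 *Myh4* barcodes. In all 127 mixed barcodes the 2 leading myosins were neighbours in speed, with 77 of *Myh1* and *Myh2*, 45 of *Myh1* and *Myh4* and 5 of *Myh2* and *Myh7*. The share of mixed barcodes was 8.14, 12.2 and 14.8% in WT replicates 1 to 3 and 12.6, 8.33 and 10.2% in Arom replicates 1 to 3 (exact permutation test, two-sided, p = 0.7). Of the 1168 barcodes with enough myosin UMIs, 128 lay near the class threshold. Depth differed between classes, with medians of 5010 UMIs in the *Myh7* class, 3379 in *Myh2*, 2705 in *Myh1* and 2185 in *Myh4*.

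The troponin isoforms followed the myosin class. With *Tnnt1* taken as a share of *Tnnt1* and *Tnnt3* UMIs in the 1491 barcodes with at least 10 such UMIs, 1307 barcodes lay under 10% and 104 over 90%. Only 80 lay between. All 84 barcodes of the *Myh7* class had a majority of the slow troponin T, against 2 of 915 readable barcodes of the 3 fast classes. Troponin T and troponin I could both be read in 1438 barcodes, of which 89 had slow majorities of both, 1340 had fast majorities of both and 9 were discordant. The 9 discordant barcodes were all in Arom mice, with 4, 2 and 3 in replicates 1 to 3.

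**Figure D1:**
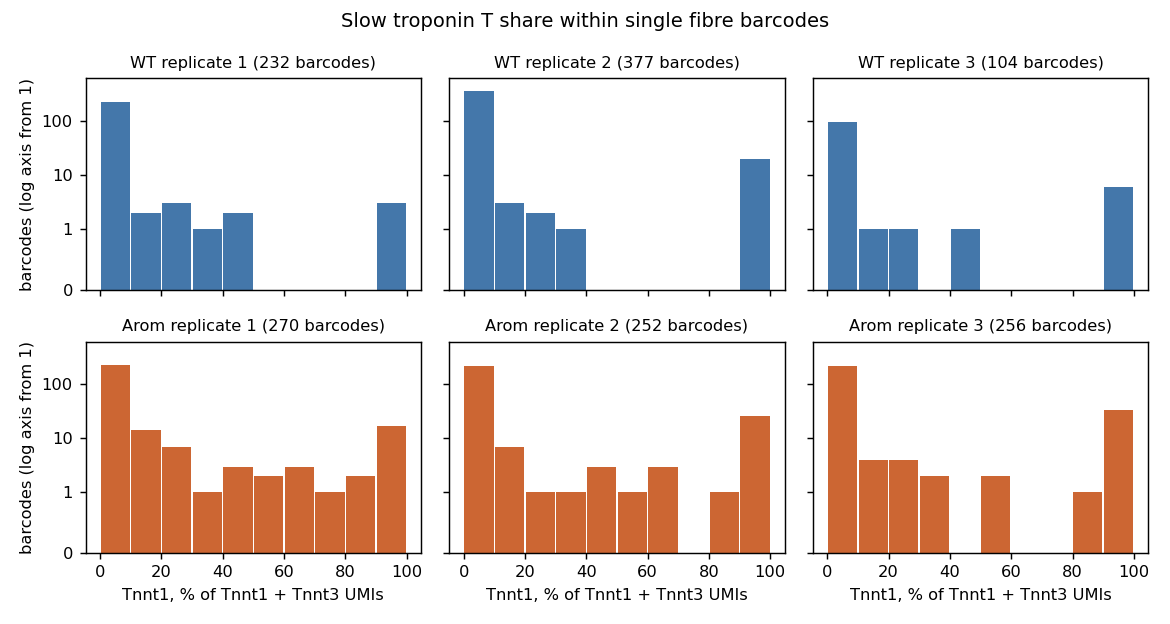
Histograms of the slow troponin T share (*Tnnt1* as % of *Tnnt1* and *Tnnt3* UMIs, x axis) over fibre barcodes with at least 10 such UMIs, 1 panel per mouse, with the number of barcodes on a log y axis. In every mouse most barcodes stand under 10% and a smaller group stands over 90%. The bins between hold 80 barcodes in all, summed 8, 6 and 3 in WT replicates 1 to 3 and 33, 17 and 13 in Arom replicates 1 to 3.

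The slow class differed from the fast classes in every non-myosin member. The *Myh7* class was compared with the *Myh2*, *Myh1* and *Myh4* classes summed, within the 4 mice that had at least 10 barcodes on both sides (WT replicate 2 and the 3 Arom mice), with 11, 18, 19 and 28 slow and 241, 170, 146 and 175 fast barcodes. The 6 members that do not define the classes all passed the threshold of 0.05 on the adjusted p (edgeR quasi-likelihood test with a term for mouse), against a background of 2.23% of 3451 genes tested higher in the slow class and 2.78% lower. Troponins and myosins of 1 fibre type are known to go together, so this is a check of the classes.

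*Tnnt1*, which ties the slow troponin complex to tropomyosin, stood at 15952 to 23528 CPM in the slow class and 156 to 1227 CPM in the fast classes of these mice, with a log2 difference of 5.02 (SE 0.38, edgeR adjusted p = 2.75e-05). *Tnni1*, the slow inhibitory subunit, stood at 6912 to 9839 against 33.4 to 266 CPM, a log2 difference of 5.64 (SE 0.44, edgeR adjusted p = 2.75e-05). The ranges of both slow troponins were far apart. The fast troponin T, *Tnnt3*, stood at 271 to 1223 CPM in the slow class and 18922 to 22707 CPM in the fast classes, a log2 difference of -5.27 (SE 0.33, edgeR adjusted p = 5.87e-06). *Tnni2*, its troponin I, stood at 207 to 2069 against 20319 to 26083 CPM, a log2 difference of -4.81 (SE 0.39, edgeR adjusted p = 3.92e-05). The fast troponins thus mirrored the slow ones, gene for gene. *Atp2a1* differed less, at 415 to 587 against 1258 to 1873 CPM (log2 difference -1.80, SE 0.15, edgeR adjusted p = 5.77e-05). *Pvalb* had 0 UMIs in the slow class and 8909 in the fast classes, at least 494-fold lower in the slow class when 3 counts over the whole class are taken as the floor (edgeR adjusted p = 1.61e-06). A *Pvalb* UMI was present in 0 of 84 barcodes of the *Myh7* class over all 6 mice, and in 43.5, 92.5 and 100% of the *Myh2*, *Myh1* and *Myh4* classes, although the *Myh7* class was the deepest.

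Other genes of the contractile programme were counted in the same comparison from lists chosen by function. Of 12 other fast fibre genes 11 were lower in the slow class. *Actn3*, the fast Z-disc actinin, had 1 UMI in the slow class and 4381 in the fast classes, a ratio per UMI of 729 (95% exact interval 131 to 28803, counting error only). *Mybpc2*, the fast myosin-binding protein C, had 1 and 2593 UMIs (ratio 432, 77.4 to 17051). *Myoz1* and *Mylpf*, a Z-disc protein and the fast regulatory light chain, differed by -3.63 and -3.20 on the log2 scale. Of the 10 other slow fibre genes 8 could be tested and 6 were higher, among them the slow tropomyosin *Tpm3* (log2 difference 9.13), the slow regulatory light chain *Myl2* (6.83), the slow calcium pump *Atp2a2* (3.82) and *Myoz2* (2.39). *Mb*, myoglobin, and *Csrp3* were the 2 that did not pass, at 0.12 and 0.35.

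Of 14 sarcomere genes listed as shared by fast and slow fibres, 1 was higher and 3 were lower. *Tpm1* (log2 difference -5.32), the creatine kinase *Ckm* (-1.49) and the M-band protein *Myom2* (1 against 390 UMIs, ratio 64.9, interval 11.6 to 2570.0) were lower, and *Actn2*, the Z-disc actinin of all fibres, was higher (0.73). Among 8 excitation and calcium genes, *Sln*, the small inhibitor of the calcium pump, was higher (2.73), and *Cacng1* (-2.16), *Jph1* (-1.24) and *Cacna1s* (-0.87) were lower. Of 5 oxidative genes tested, *Fabp3* (1.15) and *Cox6a2* (0.50) were higher. Of 5 atrophy genes tested, *Bnip3* was higher (0.80) and *Trim63* lower (-0.94). Of 10 developmental and denervation genes only 2 could be tested and neither passed, *Myog* at 1.19 (edgeR adjusted p = 0.144) and *Myl4* at -0.76 (edgeR adjusted p = 0.639). Among those not tested, the myosin *Myh8* had 119 and 14 UMIs in the fast classes of Arom replicates 1 and 2. It had 0 in those of WT replicate 2 and Arom replicate 3. The comparison thus leaves most developmental genes unread.

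**Figure D2:**
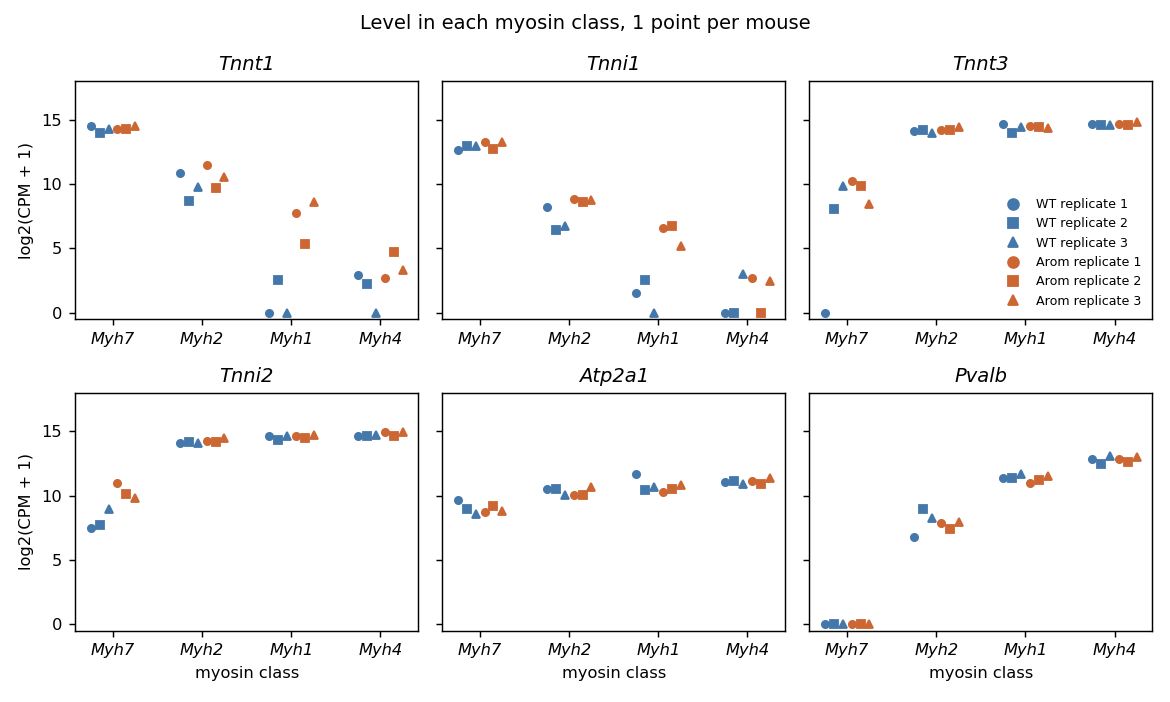
Level of the 6 non-myosin members in each myosin class, as log2(CPM + 1) on the y axis, with 1 point per mouse. *Tnnt1* and *Tnni1* are highest in the *Myh7* class, *Tnnt3* and *Tnni2* are lowest there, and *Pvalb* is at 0 in the *Myh7* class of every mouse and goes up from the *Myh2* to the *Myh4* class in all 6 mice.

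The fast classes were themselves graded. The 4 fast non-myosin members were compared between the 3 fast classes within each of the 6 mice, 12 comparisons in all, by an exact sign-flip permutation test whose smallest two-sided p is 0.03125, and 9 passed after adjustment over the 12. *Pvalb* showed the steepest grade, at 259 ± 133 CPM in the *Myh2* class, 2645 ± 447 in *Myh1* and 7190.1 ± 1122 in *Myh4* (mean ± SD over 6 mice). Its mean within-mouse ratios were 11.2 for *Myh1* over *Myh2*, 2.72 for *Myh4* over *Myh1* and 30.4 for *Myh4* over *Myh2*, each higher in 6 of 6 mice (exact p = 0.03125, adjusted p = 0.0417). *Tnni2* went up in the same order at 19073 ± 2224, 24456 ± 2293 and 27763 ± 3044 CPM, with all 3 comparisons passing (exact p = 0.03125, adjusted p = 0.0417) but ratios of 1.28, 1.13 and 1.46.

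*Atp2a1* stood at 1283 ± 267, 1808 ± 737 and 2168 ± 256 CPM in the *Myh2*, *Myh1* and *Myh4* classes, and *Tnnt3* at 18712 ± 1779.7, 21360.0 ± 3050.4 and 25615 ± 1756 CPM. *Myh4* exceeded *Myh2* in 6 of 6 mice for both, 1.71-fold and 1.37-fold (exact p = 0.03125, adjusted p = 0.0417). Of the neighbouring classes, *Myh4* exceeded *Myh1* for *Tnnt3* in 6 of 6 mice, 1.21-fold (exact p = 0.03125, adjusted p = 0.0417), whereas *Myh1* and *Myh2* did not separate for *Atp2a1* (exact p = 0.0625, adjusted p = 0.075) or *Tnnt3* (exact p = 0.1875), nor *Myh4* and *Myh1* for *Atp2a1* (exact p = 0.1875). Depth fell along the same order of classes, from a median of 3379 to 2185 UMIs, as did the median *Acta1* share, from 6.43 to 5.19%. The part of depth and *Acta1* in these grades was not tested beyond the scaling to CPM. The comparison was not run over all genes, so no background stands beside it.

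The slow troponins were graded the other way, given here as levels with no test. *Tnnt1* averaged 20519 ± 2809 CPM in the *Myh7* class, 1402 ± 892 in *Myh2*, 108 ± 159 in *Myh1* and 8.49 ± 9.08 in *Myh4* (SD, n = 6 mice). *Tnni1* averaged 8089 ± 1438, 291 ± 162, 40.5 ± 48.2 and 2.83 ± 3.18 CPM. Within the *Myh2* class the mice spread widely, from 407 to 2876 CPM of *Tnnt1*, with WT and Arom overlapping. *Tnni1* there stood at 291, 83.9 and 105 CPM in WT and 444, 387 and 437 CPM in Arom, a difference not tested.

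The question behind the genotype comparison was whether the fibres of herniating Arom muscle differ in their slow and fast genes from those of WT muscle. Per mouse, the UMIs of all fibre barcodes were summed and compared by edgeR quasi-likelihood with TMM scaling. Of 5375 genes tested, 4 passed (0.0744%), and none of the 10 members did, with 1 member and 488 genes in all at an unadjusted p under 0.05. The 4 were *Myoc* (log2 Arom over WT -4.70), *Aqp1* (-2.00), *C3* (3.15) and *Mid1ip1* (1.79), none a contractile gene. Their levels were low, at 0 to 117 CPM over the mice, and the study lists *Myoc* and *C3* among the markers of its fibroblast-like clusters. The part of RNA from other cell types in these 4 calls was not tested. No gene passed with likely doublets left out or with *Acta1* at 10% or more. Without the filter on low counts 312 genes passed, among them *Myh7*, *Tnnt1*, *Tnni1* and *Pvalb* at nearly the same fold changes (edgeR adjusted p = 6.81e-11, 2.61e-05, 1.48e-06 and 0.00225), and no other setting tried gave a call among the members. Sums over barcodes cannot tell more slow fibres from more slow RNA per fibre.

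All 3 slow genes had higher means in Arom, with overlapping groups. *Myh7* was 33.3, 127 and 264 CPM in WT replicates 1 to 3 and 180.1, 186 and 751 CPM in Arom replicates 1 to 3, a log2 difference of 1.45 (SE 0.69, 95% interval -0.10 to 3.00, edgeR adjusted p = 0.579). *Tnnt1* was 706, 1132 and 3606 CPM in WT and 2619, 2516 and 5881 in Arom, a log2 difference of 1.02 (SE 0.55, interval -0.20 to 2.25, edgeR adjusted p = 0.607). *Tnni1* was 145, 520.1 and 1359.9 CPM in WT and 1046, 956 and 2356 in Arom, a log2 difference of 1.12 (SE 0.64, interval -0.31 to 2.54, edgeR adjusted p = 0.633). In each gene WT replicate 3 stood above Arom replicates 1 and 2, and Arom replicate 3 was highest. The spread within a genotype was large, 7.92-fold between the lowest and the highest WT mouse for *Myh7*, and the intervals include both no difference and a difference of several fold. Where *Acta1* made up at least 10% of the UMIs, in 4 to 30 barcodes per mouse, the log2 differences turned to -0.44, -0.71 and -0.66. Within the study's limits on genes, UMIs and mitochondrial UMIs they were larger, at 2.18, 1.75 and 1.94, and none passed.

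**Figure D3:**
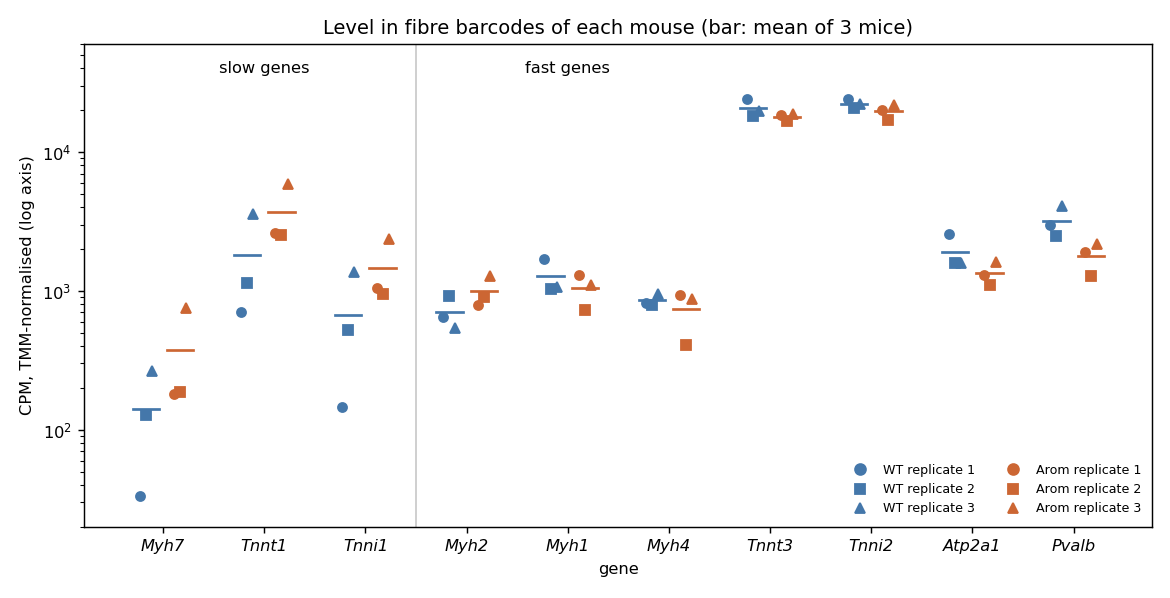
TMM-normalised CPM (log y axis) of the 10 members in the fibre barcodes of each mouse, with bars at the mean of 3 mice. The slow genes spread most between mice, the groups overlap for 9 of the 10 genes, and the 3 Arom mice (1282 to 2161 CPM) lie under the 3 WT mice (2473 to 4081 CPM) for *Pvalb*.

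The fast genes differed less. *Myh2*, the myosin of the slowest fast fibres, was 645, 923 and 538 CPM in WT and 789, 909.8 and 1279 in Arom (log2 difference 0.50, SE 0.24, edgeR adjusted p = 0.583). *Myh1* was 1709, 1038 and 1072 CPM in WT and 1307, 724 and 1096 in Arom (-0.29, SE 0.26, edgeR adjusted p = 0.765). *Myh4* was 824, 790.4 and 947 CPM in WT and 933, 409.9 and 880.4 in Arom (-0.20, SE 0.27, edgeR adjusted p = 0.861). The 3 fast myosins thus overlapped between genotypes, with Arom replicate 2 lowest in *Myh1* and *Myh4*. *Tnnt3* ranged from 18293 to 24056 CPM in WT and from 16698 to 18792 in Arom (-0.20, SE 0.17, edgeR adjusted p = 0.759), and *Tnni2* from 20706 to 24230.4 and from 17051 to 21673 (-0.19, SE 0.17, edgeR adjusted p = 0.768). *Atp2a1* was 2576, 1584 and 1578 CPM in WT and 1299, 1111 and 1626 in Arom (-0.51, SE 0.23, edgeR adjusted p = 0.548).

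*Pvalb* was the member whose genotypes did not overlap. Its level was 2959.5, 2473 and 4081 CPM in WT replicates 1 to 3 and 1899, 1282 and 2161 in Arom replicates 1 to 3. The log2 difference was -0.83 (SE 0.24, interval -1.37 to -0.29), with an unadjusted p of 0.00634 and an adjusted p of 0.389 by edgeR, which did not pass. Groups did not overlap in 14.8% of the genes tested, so 1 of 10 members is near that background. Within myosin classes the difference in *Pvalb* was smaller. In the *Myh4* class *Pvalb* was 7438, 5664 and 8627 CPM in WT and 7171, 6164 and 8075 in Arom (7243 ± 1491 and 7137 ± 956, exact permutation p = 0.9). In the *Myh1* class it was 2671, 2681 and 3282 CPM against 2007, 2314 and 2916 (2878 ± 349.6 and 2412 ± 463, exact permutation p = 0.3). In the *Myh2* class it was 112, 494 and 301 CPM against 235, 166 and 247 (exact permutation p = 0.5). The genotypes overlapped in all 3 fast classes for *Pvalb*. Over the 4 fast non-myosin members and 3 classes, 12 comparisons in all, the smallest exact permutation p was 0.1 and the adjusted p was at least 0.75.

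The fibre-type mix was then counted in barcodes, so that each classed barcode weighed the same. The *Myh7* class made up 1.27, 4.37 and 8% of classed barcodes in WT replicates 1 to 3 and 9.57, 11.5 and 13.8% in Arom replicates 1 to 3 (2, 11 and 6 barcodes against 18, 19 and 28). The means were 4.54% ± 3.37 and 11.6% ± 2.11, a difference of 7.08 points (exact permutation p = 0.1, the smallest possible). With *Acta1* at 10% or more of the UMIs the difference was 2.18 points (exact permutation p = 1). The *Myh4* class made up 31.6, 30.2 and 38.7% in WT and 25.5, 19.4 and 28.1% in Arom, a difference of -9.16 points (exact permutation p = 0.1). In both of these classes the genotypes did not overlap. The *Myh2* class made up 17.7, 31.0 and 12% in WT and 25, 32.7 and 30.5% in Arom (exact permutation p = 0.3), and the *Myh1* class 49.4, 34.5 and 41.3% against 39.9, 36.4 and 27.6% (exact permutation p = 0.4), both with overlap. After adjustment over the 10 shares tested, the smallest adjusted p was 0.333.

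Slow troponin T counted more barcodes, 119 against 84 in the *Myh7* class, by a measure added after the data were seen, as was the thinning below. Barcodes with a *Tnnt1* majority made up 1.29, 5.31 and 5.77% of readable barcodes in WT (3, 20 and 6 barcodes) and 8.89, 11.9 and 14.1% in Arom (24, 30 and 36 barcodes). The means were 4.12% ± 2.46 and 11.6% ± 2.60, a difference of 7.50 points with no overlap (exact permutation p = 0.1). The *Myh7* class and the *Tnnt1* majority hold largely the same barcodes and are no independent support for each other. Thinned to 1000 UMIs per barcode, which left out 13 to 111 barcodes per mouse, the *Myh7* class made up 1.10, 6.40 and 3.23% in WT and 5.66, 9.09 and 13.8% in Arom, and the groups then overlapped (exact permutation p = 0.2). In the same thinned barcodes the genotypes did not overlap for the *Tnnt1* share of summed UMIs (2.53, 5.60 and 6.67% in WT, 10.5, 14.7 and 16.8% in Arom), the *Tnni1* share (0.460, 2.38 and 2.06%, 4.17, 5.77 and 5.98%) or the *Myh4* class, each at an exact permutation p of 0.1. The *Myh7* share of summed myosin UMIs overlapped (1.05, 5.21 and 3.49% in WT, 4.20, 8.77 and 10.5% in Arom, exact permutation p = 0.2). The shares of the fast myosins and the *Myh2* and *Myh1* classes overlapped too (exact permutation p = 0.3 to 0.7).

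**Figure D4:**
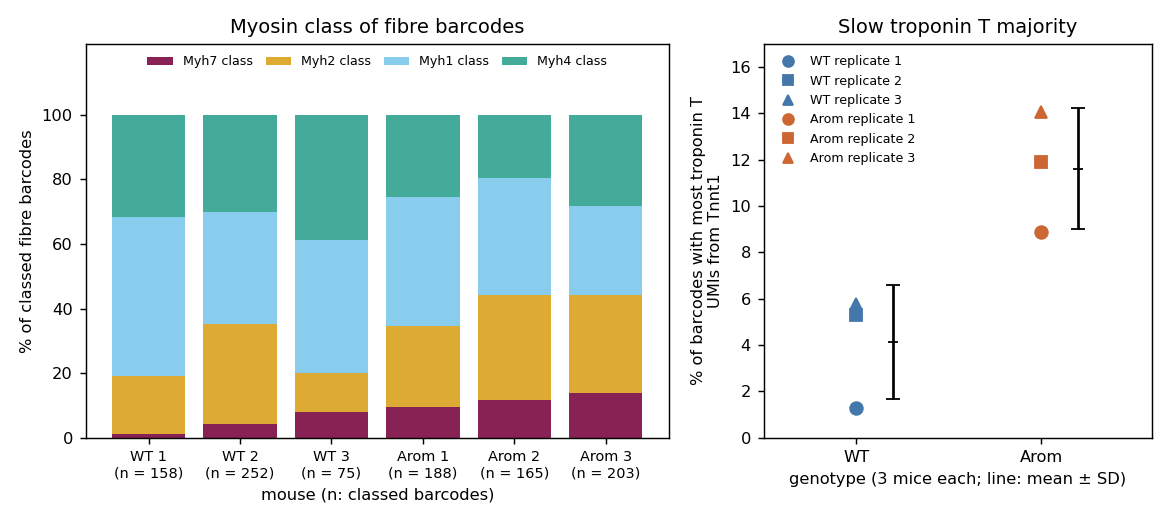
Left, the 4 myosin classes as % of classed fibre barcodes in each mouse (stacked bars). Right, the % of readable barcodes with a *Tnnt1* majority in each mouse, with mean ± SD. The *Myh7* class is 1.27 to 8% in WT and 9.57 to 13.8% in Arom, and the *Tnnt1* majority 1.29 to 5.77% and 8.89 to 14.1%.

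The same mix by summed UMIs overlapped. *Tnnt1* made up 2.85, 5.83 and 15.5% of the troponin T UMIs in WT and 12.4, 13.1 and 23.8% in Arom (8.06 ± 6.61 and 16.4 ± 6.42, exact permutation p = 0.3). *Myh7* made up 1.04, 4.42 and 9.36% of the myosin UMIs in WT and 5.61, 8.35 and 18.7% in Arom (exact permutation p = 0.3), and *Tnni1* 0.594, 2.45 and 5.79% of the troponin I UMIs against 4.92, 5.31 and 9.80% (exact permutation p = 0.3). In all 3 the overlap came from WT replicate 3. In that mouse 1 barcode of 56326 UMIs held 54.9% of the slow UMIs of the 3 genes, 1686 in all, against 14.5 to 34.2% for the top barcode of the other mice. Without the top slow barcode of each mouse, an alternative added after these values were seen, *Tnnt1* made up 1.87, 4.20 and 7.62% in WT and 10.9, 11.1 and 19.3% in Arom (exact permutation p = 0.1). *Tnni1* then made up 0.450, 1.51 and 2.62% against 4.10, 4.70 and 7.27% (exact permutation p = 0.1), and *Myh7* 0.636, 3.19 and 5.69% against 4.93, 6.99 and 15.4% (exact permutation p = 0.2). The barcode left out was chosen by its slow UMIs and held 32.1 to 54.9% of them in the WT mice and 14.5 to 24.6% in the Arom mice. Leaving it out thus lowers WT more in proportion by construction, and these shares are no support for a difference. Within the study's limits on genes, UMIs and mitochondrial UMIs, with all remaining fibre barcodes summed, the shares of *Myh7*, *Tnnt1* and *Tnni1* differed by 7.57, 10.4 and 4.38 points, each at an exact permutation p of 0.1. As means over single barcodes they differed by 6.27, 7.59 and 6.18 points, again each at an exact permutation p of 0.1. Other settings left the summed shares near the main result. The exact permutation p of *Myh7*, *Tnnt1* and *Tnni1* was 0.4, 0.3 and 0.3 with likely doublets left out, and the same at no more than 5% mitochondrial UMIs. The doublet setting removed only 1, 7 and 3 fibre barcodes in WT replicates 1 to 3 and 2, 3 and 6 in Arom replicates 1 to 3. It could therefore hardly move these shares and says little about doublets. It was 0.3 for each with an estimate of free RNA subtracted, and 0.3, 0.3 and 0.2 with *Acta1* at 1% or more. Without Arom replicate 3 the differences of all fibre barcodes summed fell from 5.96, 8.38 and 3.73 points to 2.04, 4.68 and 2.17 points. With *Acta1* at 10% or more of the UMIs, in 4 to 30 barcodes per mouse, they turned to -11.4, -11.6 and -14.1 points.

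**Figure D5:**
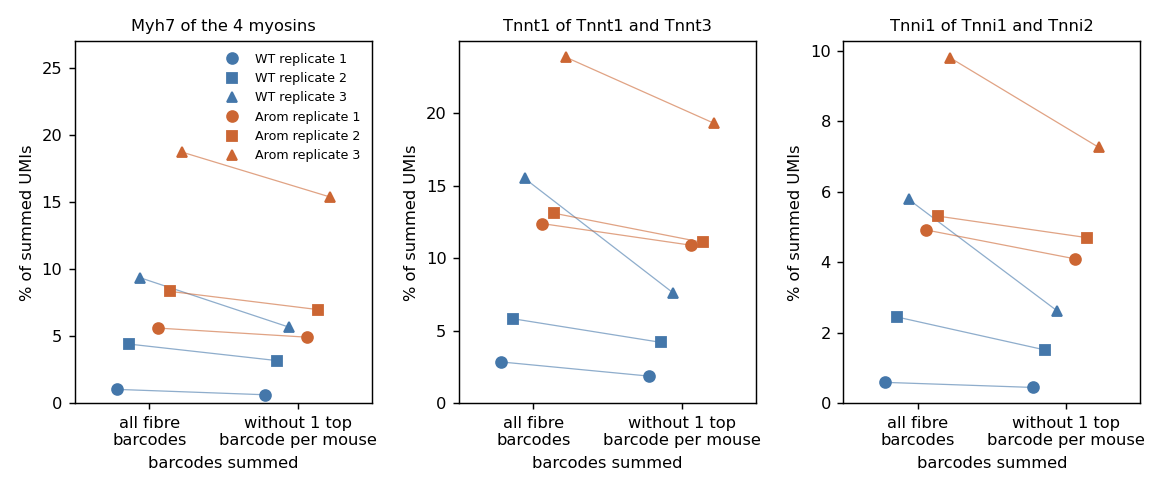
Share of the slow isoform among summed UMIs (%, y axis) for *Myh7*, *Tnnt1* and *Tnni1* in each mouse, over all fibre barcodes and without the 1 barcode with most slow UMIs in that mouse. The largest step down for both troponins is in WT replicate 3, where *Tnnt1* goes from 15.5 to 7.62%.

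Barcodes between the slow and the fast end were also counted, a measure chosen after the values were seen. Those with 10 to 90% *Tnnt1* made up 3.45, 1.59 and 2.88% of readable barcodes in WT and 12.2, 6.75 and 5.08% in Arom (2.64 ± 0.952 and 8.02 ± 3.74, exact permutation p = 0.1). Their median depth was 6054 UMIs in Arom replicate 3, against 2536.5 over its readable barcodes. In the other mice it was 1296 to 2639 against 1613 to 3915 UMIs. In the *Myh2* class *Tnnt1* had 2759 UMIs over the 6 mice and was seen in 42.4% of barcodes. The part of depth and of the *Myh2* class in this count was not tested. In the *Myh1* class, *Tnnt1* had 0, 2 and 0 UMIs in WT and 79, 8 and 139 in Arom, but 66 of the 79 and 132 of the 139 came from 1 barcode each. Without the top barcode of each mouse Arom stood at 43.0, 20.7 and 20.3 CPM. *Tnni1* in that class stood at 1.89, 4.72 and 0 CPM in WT and 94.5, 106 and 35.9 CPM in Arom (exact permutation p = 0.1), with 18 of 34, 17 of 21 and 11 of 13 Arom UMIs from 1 barcode each. Without the top barcode of each mouse it stood at 0, 2.41 and 0 CPM in WT and 45.3, 20.7 and 5.79 CPM in Arom. In the *Myh4* class, which holds little slow troponin, *Tnnt1* reached 26.0 CPM and *Tnni1* 6.86 CPM in the highest mouse, above Arom replicates 2 and 3 and Arom replicate 3, respectively, without their top barcodes. The part of free RNA in these few UMIs was not tested.

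The other genes of the contractile programme gave 0 calls of 58 tested between genotypes, beside the background of 0.0744%. All 8 other slow fibre genes tested had positive differences, with a median log2 of 0.67 against 0.01 over all genes. *Myoz2* was 759, 878 and 1157 CPM in WT and 1252, 1376 and 1661 in Arom (edgeR adjusted p = 0.418), and *Atp2a2* differed by 0.86 (edgeR adjusted p = 0.484). Of the 12 other fast fibre genes 1 was positive, with a median of -0.15. *Mylk2* and *Myoz1* differed by -0.50 and -0.51 (edgeR adjusted p = 0.456 and 0.481). Because these genes share barcodes with the members, their directions are not separate evidence.

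No gene of 5 further lists passed. *Cd36*, which takes up fatty acids, was 38.1, 54.5 and 32.4 CPM in WT and 14.8, 20.8 and 22.2 CPM in Arom (log2 difference -1.16, edgeR adjusted p = 0.179), and *Cox7a1* differed by -0.83 (edgeR adjusted p = 0.600). *Cd36* is also an endothelial gene, and the 8 endothelial markers summed to 430.1 to 576 CPM in WT and 98.0 to 249 CPM in Arom fibre barcodes, without overlap. The part of endothelial RNA in that difference was not tested. *Ttn*, titin, differed by 0.55 (edgeR adjusted p = 0.392) and *Myom2* by -0.45 (edgeR adjusted p = 0.509). The atrophy genes *Gadd45a* and *Cdkn1a* differed by -1.19 and -0.41 (edgeR adjusted p = 0.456 and 0.617), and the excitation genes *Cacna1s* and *Cacng1* by -0.26 and -0.30 (edgeR adjusted p = 0.659 and 0.677). Only 4 of the 10 developmental and denervation genes could be tested. *Myog*, a myogenic regulator that goes up after denervation, was 0, 27.2 and 0 CPM in WT and 41.7, 39.6 and 26.7 in Arom (log2 difference 1.61, edgeR adjusted p = 0.579), and *Chrna1* differed by 0.53 (edgeR adjusted p = 0.734).

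Markers of other cell types were low in the fibre barcodes but moved with genotype for some types, and their part in the differences above was not tested. The 5 glial markers summed to 28.6 to 52.9 CPM in WT and 5.24 to 19.7 CPM in Arom, and the 4 mesothelial markers to 1.56 to 6.41 and 15.7 to 45.0 CPM. The 2 of 4 heart muscle markers in the table summed to 12.3 to 28.0 CPM in WT and 43.7 to 189 CPM in Arom. Unlike the other lists of this paragraph, they were lower in the barcodes outside the fibre set, at 1.81 to 6.79 CPM over the mice. The glial, mesothelial, heart muscle and endothelial lists did not overlap between genotypes. Among single genes, 14.8% of those tested did not overlap in the fibre barcodes, and 7420 of 15308 did not in the other barcodes. Fibroblast (755 to 1402 and 666 to 1870.2 CPM), immune (12.4 to 127 and 63.9 to 467 CPM), smooth muscle and pericyte (41.2 to 162 and 77.5 to 189.5 CPM), muscle stem cell (20.8 to 37.5 and 29.5 to 38.7 CPM) and red cell markers (7.78 to 76.0 and 3.14 to 24.3 CPM) overlapped.

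Averaged over all barcodes outside the fibre set, the members were far lower than in it, although the barcodes nearest the threshold held several of them at high levels, as given above. *Tnnt3* stood at 18.1 to 80.6 CPM over the 6 mice and *Tnni2* at 22.4 to 89.6 CPM. *Tnnt1* stood at 6.63, 9.86 and 6.54 CPM in WT and 8.52, 8.37 and 6.76 CPM in Arom, and *Pvalb* at 7.20, 17.8 and 3.40 CPM against 2.52, 5.00 and 6.03 CPM. WT replicate 2 was highest for 9 of the 10 genes. None of the 10 members passed in these barcodes, against a background of 24.9% of 15308 genes (edgeR). The number behind that background, 3807 calls, depended on single mice. It went to 0 without WT replicate 2, Arom replicate 1 or Arom replicate 2 and to 2 without WT replicate 3, but to 3330 without WT replicate 1 and 5049 without Arom replicate 3.

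By likeness over the 6 mice, the gene closest to the summed slow members was *Tnnc1*, the slow and cardiac troponin C, with a Pearson r of 0.991 on log2 CPM. *Gys1* (r = 0.986), *Hmgn1* (0.981), *Dexi* (0.977) and *Myl2* (0.974) followed, and 33 of 5372 genes compared exceeded 0.9. The summed slow members stood at 884, 1779.7 and 5229.8 CPM in WT and 3845, 3658 and 8988 CPM in Arom. *Tnnc1* stood at 350 (WT replicate 1) to 4398 CPM (Arom replicate 3). All points share their libraries and fibre barcodes with the slow genes, and with 6 points the values are a description.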

How the data were processed

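Lower abdominal muscle of 6 mice (3 WT, 3 Arom) was profiled by droplet 3′ single-cell RNA-sequencing, 1 library per mouse. The authors deposited whole-number UMI counts per gene and barcode, made with Cell Ranger 3.0.2 on mm10 with human *CYP19A1* added, per the labels and the study's methods. The table held 16494 genes and 63647 barcodes, of which some lay outside the study's limits on genes, UMIs and mitochondrial UMIs.

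Barcodes with *Acta1* at 3% or more of their UMIs were kept, and counts were summed per mouse. Genotypes were compared with edgeR 4.0.16 in R 4.3.3 (TMM, filterByExpr, quasi-likelihood, Benjamini-Hochberg threshold 0.05), with DESeq2 1.42.0 as an alternative. Myosin classes were compared with a term for mouse, and shares by exact permutation over mice. Exact intervals of UMI ratios used scipy 1.17.1. Levels by class are CPM without TMM scaling. Intervals of shares and of UMI ratios, and floors, cover counting error only, whereas edgeR intervals include the spread between mice. Depth per mouse was 64958237 to 111826460 UMIs, and a gene with few UMIs in the fibre barcodes could not show a small difference. Doublets were kept, and the top 5% of Scrublet scores of each mouse (scanpy 1.11.5) were left out as an alternative. The automatic threshold of Scrublet was not used, as it marked 0 barcodes in each WT library and 327, 377 and 136 in Arom replicates 1 to 3. Other alternatives changed the *Acta1* minimum, the class rule, the low-count filter, the scaling, the mitochondrial limit and the mice, or subtracted an estimate of free RNA from the shares. The fits were tested on simulated counts with known changes. Other tools were Python 3.11.15, numpy 2.4.6, pandas 2.3.3 and matplotlib 3.10.9.

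The members and lists were chosen with earlier results of these data known. The text names all 10 members, from each functional list the genes past the threshold (at most 4, by smallest p) or otherwise the 2 with the smallest p, and the 5 genes most like the summed slow members. The 4 genes called between genotypes, the 2 slow fibre genes that did not pass between classes, *Myh8* and *Acta1* were named beyond that rule, after their values were seen. By the study's methods, each processing date took a WT mouse and an Arom littermate, but the sources used here do not tie replicate numbers to dates. Same-number deviations correlated at 0.118, -0.0911 and 0.0580 in the fibre barcodes, against -0.180 to 0.130 for mice of different number. In the other barcodes they correlated at 0.248, 0.0118 and 0.320, against -0.326 to 0.191. These values cannot decide whether the numbers mark pairs. Some same-number values of each set were under 0.1, so the numbers were not used as pairs and all permutation tests of genotype are unpaired.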

Additional observations from a re-analysis of the deposited data

How the results depend on the processing

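Leaving out 1 mouse at a time kept the direction of the slow genes and of *Pvalb* in the fibre barcodes, with log2 differences (Arom over WT) of 0.43 to 2.18 for *Myh7*, 0.50 to 1.99 for *Tnnt1*, 0.58 to 2.11 for *Tnni1* and -1.0 to -0.62 for *Pvalb*. *Myh4* ranged from -0.40 to 0.082, the latter without Arom replicate 2, and was 0.17 within the study's limits on genes, UMIs and mitochondrial UMIs. The 4 genotype calls in the fibre barcodes became 2 with *Acta1* at 1% or more, 0 at 10% or more, 23 with DESeq2, 0 without likely doublets, 312 without the filter on low counts (4 of them members) and 2 to 12 with 1 mouse left out (2 without WT replicate 1, 11 without WT replicate 2 and 12 without Arom replicate 3). The causes were not tested. With *Acta1* at 10% or more the log2 differences were -0.44 for *Myh7*, -0.71 for *Tnnt1*, -0.66 for *Tnni1*, 0.40 for *Myh1*, 0.080 for *Tnnt3* and 0.14 for *Tnni2*, with 1.93 for *Myh2* and -1.32 for *Pvalb* in their main directions, the slow shares of summed UMIs differed by -11.4 points (*Myh7*), -11.6 points (*Tnnt1*) and -14.1 points (*Tnni1*), the *Myh7* class share by 2.18 points and the share of fibre barcodes by 0.0109 points, which rests on 4 to 30 barcodes per mouse. That share differed by -0.687 to 0.598 points with 1 mouse left out, with 0.598 without WT replicate 2 and 0.150 without Arom replicate 2, by -1.56 points within the study's limits and by -0.830 points at no more than 5% mitochondrial UMIs.

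In the other barcodes the 3807 calls became 0 to 5049 with 1 mouse left out. Of the 10 members there, 7 turned direction without some mouse, with log2 ranges of -0.066 to 0.26 for *Tnnt1*, -0.51 to 0.33 for *Myh7*, -0.65 to 0.20 for *Myh2*, -0.66 to 0.18 for *Myh1*, -1.16 to 0.29 for *Myh4*, -1.01 to 0.067 for *Tnnt3* and -0.80 to 0.25 for *Tnni2*. The 173 calls between classes became 68 to 166 with 1 mouse left out (68 without Arom replicate 1, 110 without Arom replicate 2, 98 without Arom replicate 3), and all 6 non-myosin members passed each time.

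The replicate numbers were not taken as a pairing, and a fit with the replicate number as a block gave 7 calls in place of 4 in the fibre barcodes and 4299 in place of 3807 in the others, with 0 members called in either. Log2 differences with the block were 1.42 for *Myh7*, 1.24 for *Tnnt1*, 1.45 for *Tnni1* and -0.83 for *Pvalb*. Their edgeR adjusted p was 0.129, 0.0996, 0.163 and 0.0519 with the block, against 0.579, 0.607, 0.633 and 0.389 without it.

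The slow class held few barcodes, 2 and 6 in WT replicates 1 and 3, and 3 mice against 3 cannot give an exact p under 0.1. The fine filter limits which fibres were seen. The study reports smaller, atrophied fibres and fibrosis in Arom muscle. Whether the filter and digestion passed fibres of both genotypes alike was not tested, so the mix of barcodes need not be that of the muscle. Leaving out the top slow barcode, comparing genotypes within classes, the *Tnnt1* majority, thinning, the mitochondrial and doublet settings, and counting intermediate barcodes were chosen after seeing the data.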
